A study of Homo sapiens with 12 samples.

Results

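The guanylate-binding proteins GBP1, GBP2, GBP3, GBP4 and GBP5 are a family of interferon-induced GTPases encoded side by side on human chromosome 1. They were taken from the deposited expression table by gene name, which gave 5 genes of 58735. The study asked how TNF-α, the trimethylated hydroxytryptamine 5-OH-TMT (Bufotenidine in the labels) and knockdown of the protease HTRA2 change the RNA of NCM460, a line of human colon epithelial cells. There were 12 RNA-seq libraries in 4 groups of 3. The groups were wild-type cells in medium, wild-type cells with TNF-α, wild-type cells with TNF-α and 5-OH-TMT, and cells with HTRA2 knocked down by siRNA and given TNF-α, so that every group but medium received TNF-α. The dose of TNF-α and the hours of exposure are not given in the sources used here, nor is the siRNA that the sequenced knockdown cells received. The labels of the wild-type libraries name no control siRNA, so transfection and lowered HTRA2 cannot be told apart in the knockdown. All libraries came from 1 cell line, nothing says that they came from separate cultures, and p-values then measure only the spread between these libraries.

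Guanylate-binding proteins are large GTPases of the dynamin superfamily, best known as products of interferon-γ signalling through the Janus kinases and the factor IRF1, and they can also be induced by TNF-α. In infected cells they assemble on bacteria and on the vacuoles of pathogens, and GBP1 binds the lipopolysaccharide of Gram-negative bacteria and helps to bring in caspase-4, the sensor of cytosolic lipopolysaccharide that starts pyroptosis. GBP2 and GBP4 take part in the same coat on bacteria, GBP3 in the activation of caspase-4 there, and GBP5 is known for promoting NLRP3 inflammasome assembly and for inhibiting the protease furin. GBP1, GBP2 and GBP5 are anchored to membranes by a lipid added to a CaaX box, a cysteine at the fourth position from the end of the protein, whereas GBP3 and GBP4 carry none.

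All 5 genes lie on the minus strand of chromosome 1 in the deposited coordinates (hg38). From the lower coordinate upward they are GBP3 (ENSG00000117226, chr1:89006666-89022894), GBP1 (ENSG00000117228, chr1:89052319-89065360), GBP2 (ENSG00000162645, chr1:89106132-89150456), GBP4 (ENSG00000162654, chr1:89181148-89198932) and GBP5 (ENSG00000154451, chr1:89258950-89272804). GBP7 lies on the same strand between GBP2 and GBP4, and its exons share 621 bases with those of GBP2, while GBP6 and the pseudogene GBP1P1 lie beyond GBP5 on the plus strand. The ends of the coding sequences, from the GENCODE 29 transcripts of GRCh38, show how the members divide by membrane anchor. Below, the last 4 codons before the stop are in capitals.
GBP1: atgagacgacgaaaggcaTGTACCATAAGC
GBP2: aaatcattggagccaataTGTAACATACTC
GBP5: gttaataacgatgatccaTGTGTTTTACTC
GBP3: aagagatatatgtcgcatAAGCTAAAGATC
GBP4: gtagggacaaaatatcttGGCTCACGTATT
The first codon in capitals is TGT, for cysteine, in GBP1, GBP2 and GBP5, and is AAG in GBP3 and GGC in GBP4. The coding sequences run to 592, 591, 595, 640 and 586 codons in GBP1 to GBP5, each in a transcript of 11 exons. GBP1 and GBP3 are identical at 91.6% of aligned coding bases and GBP1 and GBP2 at 82.4%, which bears on the counting of reads. Of all 50-base windows of GBP1, 13.3% also occur in a transcript of another gene (GBP1P1, GBP3 or GBP2), against 3.09% to 6.07% in the other members. No 150-base window of GBP1 to GBP4 is shared, and 1.02% of those of GBP5 are, with the antisense gene AC099063.1, which was listed at 0 in all 12 libraries. So was AC099063.4, antisense to 138 exon bases of GBP4. The read length is not given in the sources used here.

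RefSeq promoters (GRCh38.p14) were matched for 3 of the 5 members, GBP1, GBP3 and GBP4. They were searched on both strands for the interferon-stimulated response element (ISRE) written as GAAA, any 2 bases and GAAA again, for the γ-activated site (GAS) written as TTCNNNGAA and for the NF-κB consensus. The stretches with an ISRE match are shown because interferon is the best known inducer of these genes. They are written 5′ to 3′ on the strand of the gene, with matches in capitals.
GBP1: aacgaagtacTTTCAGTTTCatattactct
GBP3: cacTTCCTTGAAagaagtacTTTCAGTTTC
GBP4: cacaaagtgcatgtccTTTCAATTTCggtt
The GBP1 stretch is chr1:89065316-89065345, with its ISRE match at -127 to -118 from the RefSeq start at 89065208, which places it inside the longer deposited gene model. The GBP3 stretch is chr1:89022855-89022884 and holds a GAS match at -15 to -7 and an ISRE match at 3 to 12, with the start at 89022866. The GBP4 stretch is chr1:89198933-89198962, its ISRE match spans -4 to 6 around the start at 89198942, and an NF-κB match, GGAAAATCCC, lies outside the stretch at -45 to -36. Every ISRE match reads as the motif on the strand opposite to the gene, and in GBP1 and GBP3 it has the same letters. Of 35116 promoters of the same length, 3.57% held the ISRE letters, 7.66% the GAS letters and 5.91% the NF-κB consensus. These matches are letters in a window and are no measure of binding.

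Levels are FPKM, fragment counts scaled to gene length and library size, so comparison between genes depends on the deposited lengths. These were 4992, 6276, 4297, 6127 and 8143 bases for GBP1 to GBP5. The transcripts whose coding ends are shown above held 3035, 2220, 3067, 6127 and 2011 bases. FPKM of different members are thus compared with this limit. Each library held 31008429 to 37624399 reads on genes, and the reads behind each FPKM were recovered as whole numbers. HTRA2, the targeted gene, had 15.4, 14.0 and 14.2 FPKM in the TNF-α libraries, 13.3 to 17.2 in medium, 14.8 to 15.5 with 5-OH-TMT, and 7.44, 7.18 and 7.22 in the knockdown. Against TNF-α it fell by 0.98 ± 0.087 (SE) on the log2 scale (limma, adjusted p = 2.77e-05). All 3 knockdown libraries lay below all others, as their label says they should. HTRA2 RNA was thus lowered but not absent, and protein was not measured in these libraries. Of 10 colon epithelial markers, EPCAM, CDH1, KRT8, KRT18, KRT19 and LGALS4 were above 3 reads in at least 1 library of each group. LGALS4 was scarce, with 2 to 16 reads per library in medium, 3 to 8 with TNF-α, 0 to 17 with 5-OH-TMT and 2 to 4 in the knockdown. KRT20, VIL1, CDX1 and CDX2 were at or under 3 reads in every library of every group, CDX2 being listed at 0. These cells thus carried epithelial keratins but hardly any reads of CDX1 and CDX2, the defining intestinal transcription factors. Because cells were sequenced in bulk, fewer expressing cells and less RNA per cell cannot be told apart.

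The summed FPKM of the 5 genes was 6.17 ± 0.788 (SD, n = 3) in medium and 17.3 ± 1.70 with TNF-α. It was 22 ± 4.53 when 5-OH-TMT was added and 58.3 ± 5.36 in knockdown cells. GBP1 and GBP3 made up most of it in each group, GBP2 and GBP4 were lower, and GBP5 was close to its detection limit outside the knockdown. Over all 12 libraries the mean was 14.4 FPKM for GBP1, 7.59 for GBP3, 2.15 for GBP2, 1.72 for GBP4 and 0.104 for GBP5. All 5 passed the filter of a mean of at least 0.1 FPKM, but GBP5 did so through the knockdown alone, since its mean over the 9 other libraries was 0.0306 FPKM.

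**Figure D1:**
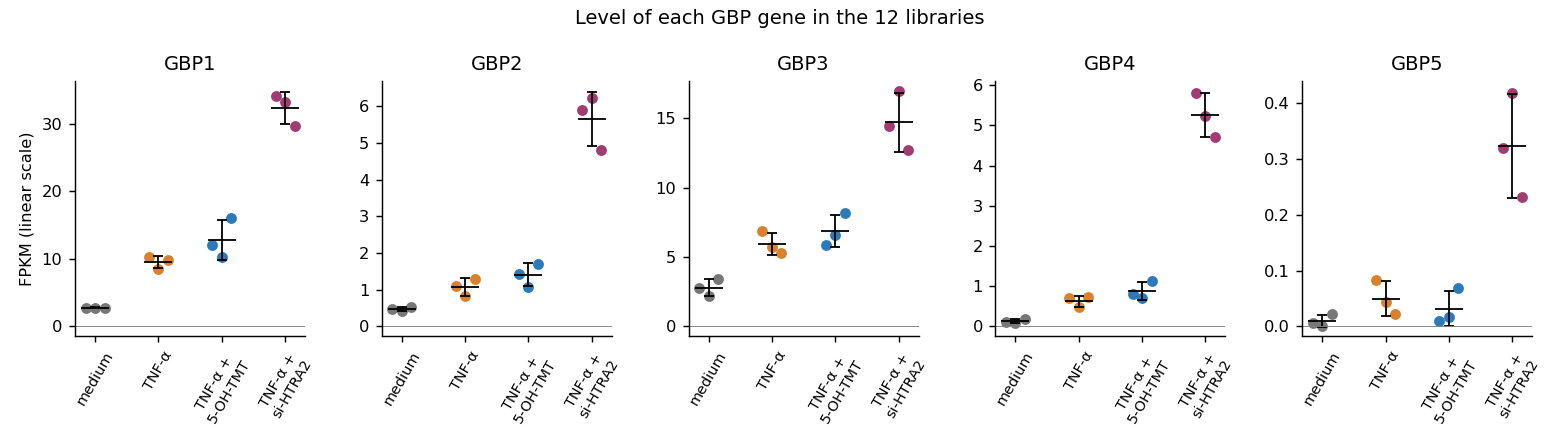
FPKM of GBP1 to GBP5 in each library, 1 panel per gene on its own linear axis, with points for the 3 libraries of each group and bars for the mean and SD. In each panel the 3 knockdown libraries lie above all 9 others, and every TNF-α library lies above every medium library, for GBP5 only by 7 reads against 6.

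GBP1, the most studied member, had 2.80, 2.68 and 2.78 FPKM in medium and 10.2, 8.54 and 9.84 FPKM with TNF-α. With 5-OH-TMT added it had 12, 10.3 and 16.1 FPKM, and in the knockdown 34.2, 33.3 and 29.7 FPKM. The 4 groups did not overlap, although the highest TNF-α library and the lowest 5-OH-TMT library nearly met. GBP3, its closest relative by sequence, had 2.79, 2.19 and 3.43 FPKM in medium and 6.86, 5.72 and 5.31 FPKM with TNF-α. It had 5.85, 6.61 and 8.16 FPKM with 5-OH-TMT and 14.5, 17 and 12.7 FPKM in the knockdown. GBP1 and GBP3 therefore overlapped in medium, whereas in each of the other groups every GBP1 library lay above every GBP3 library.

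GBP2, the prenylated member of intermediate level, had 0.478, 0.412 and 0.541 FPKM in medium and 1.11, 0.818 and 1.29 FPKM with TNF-α. It had 1.44, 1.08 and 1.71 FPKM with 5-OH-TMT and 5.89, 6.23 and 4.81 FPKM in the knockdown. The TNF-α and 5-OH-TMT libraries interleaved, and medium and the knockdown stood apart on either side. GBP4, which lacks the CaaX cysteine, had 0.113, 0.0865 and 0.180 FPKM in medium, from 24, 17 and 36 reads, and 0.699, 0.471 and 0.722 FPKM with TNF-α. It had 0.798, 0.698 and 1.14 FPKM with 5-OH-TMT and 5.81, 5.24 and 4.71 FPKM in the knockdown. GBP4 thus lay below GBP2 within each of the 12 libraries, although the ranges of both genes overlapped with 5-OH-TMT and in the knockdown.

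GBP5, the member linked to NLRP3, was scarce and is best read in whole reads. Medium gave 2, 0 and 6 reads, TNF-α 25, 11 and 7, 5-OH-TMT 3, 5 and 20, and the knockdown 94, 123 and 69. In FPKM the knockdown libraries held 0.320, 0.419 and 0.232 and the highest of all others 0.0837. Medium reached the floor of 3 reads or less in 2 of its 3 libraries, so the folds of GBP5 from medium rest on a handful of reads.

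**Figure D2:**
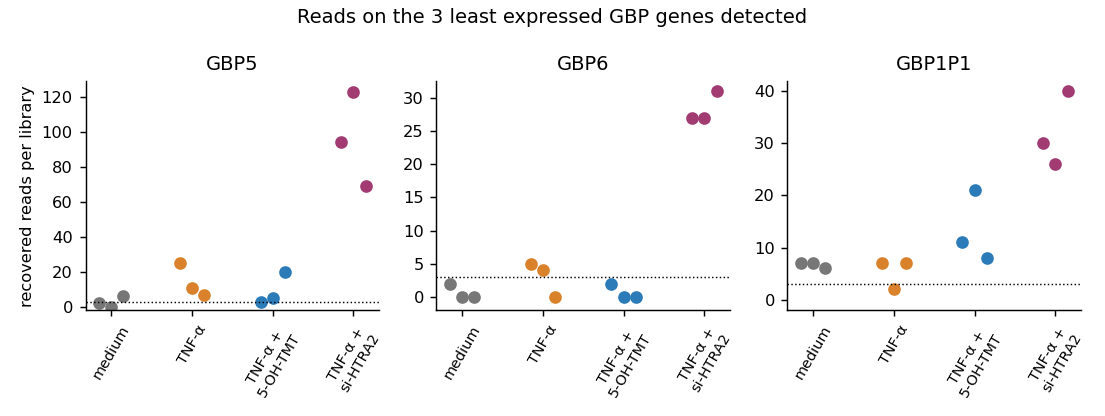
Whole reads recovered for GBP5, its relative GBP6 and the pseudogene GBP1P1, 1 panel per gene on its own linear axis, with 1 point per library by group and a dotted line at the floor of 3 reads. GBP5 stayed at 25 reads or fewer in the 9 libraries without the knockdown and reached 69 to 123 reads with it.

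TNF-α against medium asked how the cytokine alone moved the family. GBP1 rose 3.47-fold by the ratio of mean FPKM, GBP2 rose 2.25-fold, GBP3 rose 2.13-fold and GBP4 rose 4.99-fold. Every TNF-α library exceeded every medium library for 5 of 5 members, as it did for 11.1% of the 18079 genes tested. Each exact two-sided permutation test of 3 libraries against 3 therefore gave p = 0.1, the smallest that this design allows. For GBP5 the separation was only 7 reads with TNF-α against 6 in medium, and GBP5 entered the genes tested only through the knockdown libraries. In limma on log2(FPKM + 0.1), a scale that understates the change of low genes, 4 of 5 members rose at an adjusted p under 0.05, against 3.22% of all genes, and none fell, against 0.885%. The same 4 passed the study's own rule of a fold of 2 or more and a p, before adjustment, of 0.05 or less, as did 1.76% of all genes.

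On that scale GBP1 changed by 1.75 ± 0.13 (SE, adjusted p = 9.82e-06), with a 95% interval of 1.46 to 2.05. GBP4 changed by 1.69 ± 0.22 (adjusted p = 5.96e-04), GBP3 by 1.08 ± 0.17 (adjusted p = 0.00287) and GBP2 by 1.01 ± 0.19 (adjusted p = 0.00938). For GBP5 the change was 0.43 ± 0.37 (adjusted p = 0.665). The call on GBP2 was lost when only the TNF-α and medium libraries were fitted (adjusted p = 0.0765). The median log2 fold change of the 5 members was 1.08, beside -0.0020 over all genes tested. Ranked among the 18079 genes by log2 fold change on this scale, GBP1 was at 118 and GBP4 at 131, ahead of GBP3 at 447, GBP2 at 518 and GBP5 at 1873.

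5-OH-TMT added to TNF-α was compared with TNF-α alone, since the compound was studied for its effect on inflamed epithelium. No member of the family passed the test in either direction, and the means of GBP1 to GBP4 lay above those with TNF-α alone, not below. The ratios of mean FPKM were 1.34 for GBP1, 1.31 for GBP2, 1.15 for GBP3, 1.39 for GBP4 and 0.640 for GBP5. In limma 0 of 5 members were higher at an adjusted p under 0.05, against 0.0332% of all genes, and 0 were lower, against 0.00553%, so that very few genes of any kind were called here. At an unadjusted p under 0.05 there was 1 member, GBP1, a share of the 5 near the 20.1% of all genes, and limma voom on the recovered reads called 0. By the study's rule 0 members were higher, against 0.686%.

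The log2 fold change of GBP1 was 0.40 ± 0.13 (SE, adjusted p = 0.144), with a 95% interval of 0.11 to 0.69. It was the 1 member whose 5-OH-TMT libraries all exceeded the TNF-α libraries (exact permutation p = 0.1), as 16.3% of all genes did. The intervals of the log2 fold change were -0.058 to 0.78 for GBP2, -0.18 to 0.57 for GBP3, -0.058 to 0.89 for GBP4 and -1.0 to 0.61 for GBP5. Their exact permutation p-values were 0.3, 0.4, 0.3 and 0.5. For GBP1 to GBP4 a fall of more than 0.18 on the log2 scale thus lay outside the interval, whereas a rise of 0.5 lay within it. The third 5-OH-TMT library was the highest of its group for each of GBP1 to GBP5, and without it the log2 fold changes of GBP1 to GBP4 were 0.22, 0.22, 0.068 and 0.23 (adjusted p = 0.325, 0.607, 0.879 and 0.617). Without the second TNF-α library, the lowest of its group for GBP1, GBP2 and GBP4, that of GBP2 was 0.20 (adjusted p = 0.607) and that of GBP4 was 0.25 (adjusted p = 0.573). The value of GBP3 was 0.12 without the third TNF-α library (adjusted p = 0.803), and that of GBP5 ranged from -0.38 to -0.035 as libraries were left out. The median of the 5 members was 0.36, beside 0 over all genes.

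The knockdown of HTRA2 under TNF-α was compared with TNF-α alone, to ask what lowering the RNA of the protease added to the response. All 5 members were higher, with ratios of mean FPKM of 8.33 for GBP4, 6.47 for GBP5, 5.26 for GBP2, 3.4 for GBP1 and 2.47 for GBP3. The lowest knockdown library exceeded the highest TNF-α library for GBP1 to GBP4, 4 of 4, as for 17.5% of all genes. Each exact permutation test gave 0.1. In limma GBP1, GBP2, GBP3 and GBP4, 4 of 4, rose at an adjusted p under 0.05, against 9.35% of all genes, and 0 fell, against 8.08%. By the study's rule the same 4 were higher, against 3.08% of all genes. GBP5 passed both rules too and did not overlap (exact permutation p = 0.1), but it entered the fit only through the knockdown libraries. It is therefore left out of these counts.

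The change of GBP4 was 2.89 ± 0.22 on the log2 scale (SE, adjusted p = 1.35e-05), with a 95% interval of 2.41 to 3.36. It was followed by GBP2 at 2.30 ± 0.19 (adjusted p = 1.97e-05), GBP1 at 1.75 ± 0.13 (adjusted p = 1.42e-05), GBP5 at 1.49 ± 0.37 (adjusted p = 0.0155) and GBP3 at 1.29 ± 0.17 (adjusted p = 3.84e-04). The interval of GBP4 did not meet that of GBP1, 1.46 to 2.05. With TNF-α against medium, GBP1 and GBP4 lay close together on this scale, whereas the ratio of mean FPKM was larger for GBP4. GBP4 was at 24 and GBP2 at 58 when all 18079 genes were ranked by this log2 fold change, and GBP1, GBP5 and GBP3 were at 159, 276 and 418. The median of the 5 members, GBP5 included, was 1.75, beside -0.0034 over all genes. GBP5 lost its call without the second knockdown library (adjusted p = 0.0522), which held 2.95% mitochondrial reads, the lowest share of all 12, and with a pseudocount of 0.01 (adjusted p = 0.0801).

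**Figure D3:**
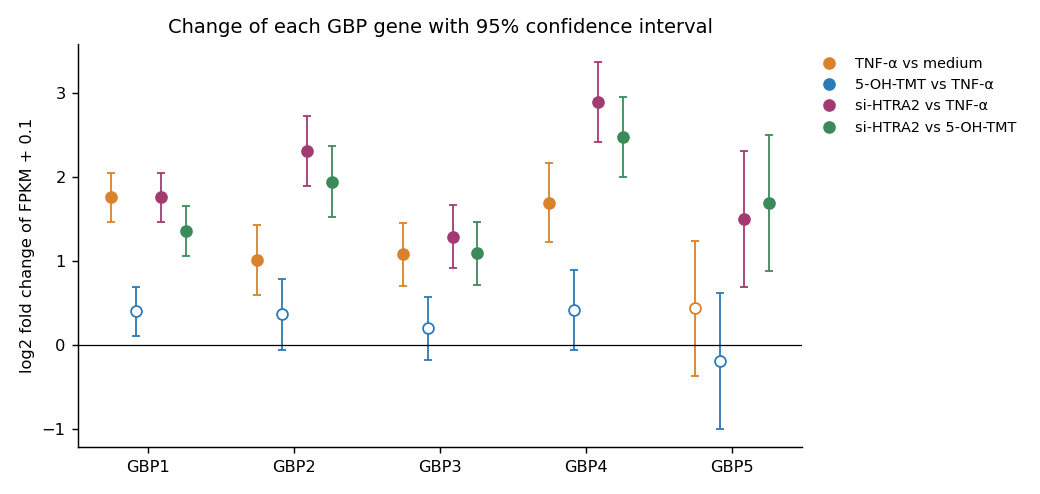
Log2 fold change of GBP1 to GBP5 on the log2(FPKM + 0.1) scale in the 4 comparisons, with 95% intervals from limma and filled points for calls at an adjusted p under 0.05. The intervals of the 2 comparisons with the knockdown lie above 0 for GBP1 to GBP4, whereas those of 5-OH-TMT against TNF-α include 0 for GBP2 to GBP5. The knockdown intervals of GBP5 lie above 0 too, but GBP5 passed the filter only through the knockdown libraries.

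The knockdown was also compared with the 5-OH-TMT group, both having received TNF-α, because the study examined HTRA2 together with the compound. The 2 conditions stood far apart for this family. GBP1 was 2.53-fold higher in the knockdown by mean FPKM, GBP2 was 4.0-fold, GBP3 was 2.14-fold, GBP4 was 5.98-fold and GBP5 was 10.1-fold higher. In limma GBP1 to GBP4 rose, 4 of 4, against 7.85% of all genes, and 0 fell, against 7.43%. The same 4 passed the study's rule, against 2.18%. Every knockdown library lay above every 5-OH-TMT library for these 4 of 4, against 18.2%, with an exact permutation p of 0.1 each. GBP5 did not overlap either, but it is again left out of the counts.

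The log2 fold change of GBP4 was 2.47 (adjusted p = 5.19e-05, 95% interval 2.0 to 2.95) and GBP2 one of 1.94 (adjusted p = 1.1e-04). GBP5 followed at 1.68 (adjusted p = 0.0113), GBP1 at 1.35 (adjusted p = 1.1e-04) and GBP3 at 1.09 (adjusted p = 0.0018). The median of the 5 members, GBP5 included, was 1.68, beside 0.010 over all genes. This comparison and the one with TNF-α alone share the knockdown libraries, so their likeness is not a separate result.

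Some markers of other cell types were higher in the knockdown than with TNF-α. Of 10 such markers, 4 could be tested, and 3 rose against TNF-α, where 9.35% of all genes rose. They were CD14 (log2 fold change 1.41, adjusted p = 0.0163), CSF1R (1.28, adjusted p = 0.00127) and COL1A1 (1.23, adjusted p = 1.26e-04). COL1A1 and CSF1R rose also against 5-OH-TMT, where 7.85% of all genes rose. PECAM1 was not called against TNF-α (0.28, adjusted p = 0.595). CD14 had a mean of 0.397 FPKM in medium, 0.0946 with TNF-α and 0.443 in the knockdown. Its knockdown mean thus lay near that of medium. The summed FPKM of the list stayed low, at 1.91 to 2.12 in medium, 1.30 to 1.81 under TNF-α, 1.93 to 2.20 when 5-OH-TMT was added and 3.72 to 4.48 in the knockdown. The T cell gene CD3E and the fibroblast gene DCN were listed at 0 in all 12 libraries, and the leukocyte gene PTPRC was at or under 3 reads in each knockdown library. The epithelial list summed to 2260 to 2509 FPKM with TNF-α and 2118 to 2387 in the knockdown. Of its 5 tested genes, KRT19 (log2 fold change 0.77, adjusted p = 0.0044) and CDH1 (0.40, adjusted p = 0.00108) rose against TNF-α. EPCAM, KRT8 and KRT18 had estimates below 0 and were not called, and the median of the 5 was -0.021. Against 5-OH-TMT limma called CDH1 alone. At an unadjusted p under 0.05 there were 4, against 29.7% of all genes, 2 of them higher and 2, KRT8 and KRT18, lower. The part of these markers in the rise of the GBP genes was not tested.

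The make-up of the family shifted along with its level. GBP1 was 45.0% ± 4.99 (SD, n = 3) of the summed FPKM in medium, 55.3% ± 1.73 under TNF-α, 58.0% ± 2.52 after adding 5-OH-TMT and 55.6% ± 1.81 in the knockdown. GBP3 was 45.1% ± 4.28 in medium and 34.6% ± 3.18, 31.5% ± 3.34 and 25.2% ± 1.86 in the other groups. GBP3 so went from an equal share with GBP1 to less than that of GBP1 in each TNF-α condition. GBP4 was 2.01% ± 0.514 in medium, 3.63% ± 0.591 under TNF-α, 3.96% ± 0.231 after adding 5-OH-TMT and 9.01% ± 0.571 in the knockdown. GBP2 was 7.73% in medium, 6.20% under TNF-α, 6.41% after adding 5-OH-TMT and 9.65% in knockdown cells, and GBP5 stayed between 0.132% and 0.549%. The shares add up to the whole, so a higher share of one gene lowers the others. They also depend on the deposited length of each gene.

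**Figure D4:**
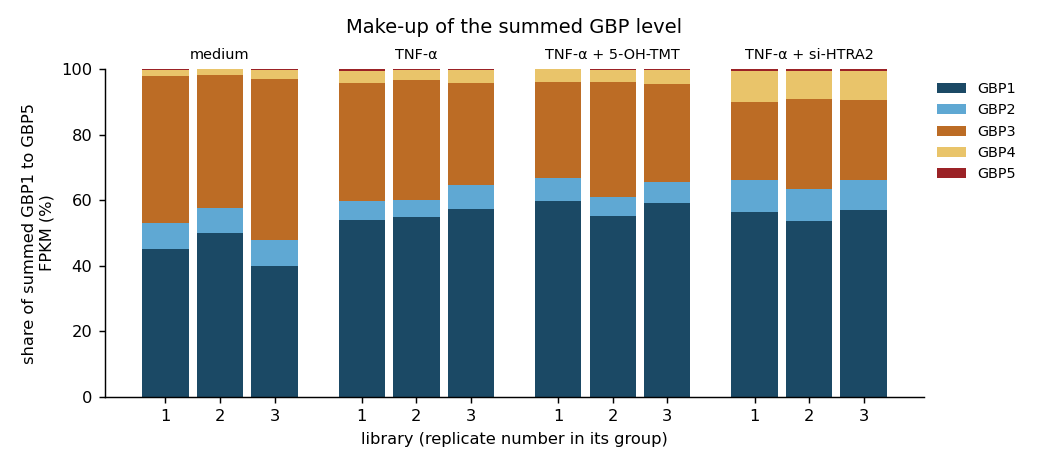
Share of the summed FPKM of GBP1 to GBP5 taken by each gene, in percent, in each of the 12 libraries. GBP4 widens from a mean of 2.01% in medium to 9.01% in the knockdown, while GBP3 narrows from 45.1% to 25.2%.

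The rest of the family was measured beside these members. GBP6 had 2, 0 and 0 reads in medium and 5, 4 and 0 under TNF-α. Adding 5-OH-TMT gave 2, 0 and 0 reads, and the knockdown gave 27, 27 and 31. It was thus above 5 reads in the knockdown alone, at least 9.28-fold higher than with 5-OH-TMT when the latter is set to a floor of 3 reads per library. GBP6 lay under the filter and was fitted among all 31951 genes with any FPKM, where its log2 fold change against TNF-α was 1.5 (adjusted p = 7.46e-04). GBP7, the neighbour of GBP2, was listed at 0 in all 12 libraries. The pseudogene GBP1P1, which shares sequence with GBP1, had 7, 7 and 6 reads in medium, 7, 2 and 7 under TNF-α, 11, 21 and 8 after adding 5-OH-TMT and 30, 26 and 40 in knockdown cells. It rose against TNF-α (log2 fold change 1.55 ± 0.32 SE, adjusted p = 0.00563), but its counts are small beside the 5409 to 6159 reads of GBP1 there.

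The genes upstream of the family were followed with a list of 12 genes of interferon-γ signalling through JAK and STAT proteins. IFNG, the ligand, was listed at 0 in all 12 libraries, and the other 11 were tested. Against medium, TNF-α raised 5 and lowered 0, where 3.22% of all genes rose and 0.885% fell. Among the 5 were the receptor chains IFNGR2 (log2 fold change 0.95, adjusted p = 9.82e-06) and IFNGR1 (0.69, adjusted p = 1.01e-04) and the transcription factors IRF2 (0.77, adjusted p = 0.00358) and IRF1 (0.56, adjusted p = 6.16e-04). In the knockdown 9 rose and 0 fell against TNF-α, where 9.35% of all genes rose and 8.08% fell. Among the 9 were IRF9 (1.26, adjusted p = 0.00502), the feedback inhibitor SOCS1 (0.97, adjusted p = 0.00113) and STAT2 (0.81, adjusted p = 1.79e-05). Against 5-OH-TMT the knockdown raised 6 and lowered 0, where 7.85% of all genes rose and 7.43% fell. IFNGR1 (0.78, adjusted p = 6.02e-05) and STAT2 (0.63, adjusted p = 1.64e-04) were among the 6. With 5-OH-TMT against TNF-α limma called 0 of 11 and voom called 0. At an unadjusted p under 0.05 there were 6, against 20.1% of all genes, 5 of them higher and 1, PTPN2, lower. The median log2 fold changes of the list were 0.42 for TNF-α, 0.18 for 5-OH-TMT, 0.76 for the knockdown against TNF-α and 0.54 against 5-OH-TMT.

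Partners of the family in pyroptosis were counted on a list of 12 genes, of which 11 were tested. TNF-α raised 4 and lowered 0 against medium, where 3.22% of all genes rose and 0.885% fell. The 4 were the cytokine gene IL1B (log2 fold change 1.76, adjusted p = 7.26e-06), the inflammasome sensor NLRP3 (1.51, adjusted p = 0.0458), CASP4 (0.34, adjusted p = 0.0411) and PIM1 (0.30, adjusted p = 0.0496), the kinase that restrains GBP1. The knockdown raised 7 and lowered 0 against TNF-α, where 9.35% of all genes rose and 8.08% fell. First was CASP1, the caspase that matures interleukin-1β (1.40, adjusted p = 2.38e-05), then the ubiquitin ligase RNF213 (0.68, adjusted p = 0.00159), IL1B (0.53, adjusted p = 0.0144) and the adaptor PYCARD (0.49, adjusted p = 0.0102). Against 5-OH-TMT the knockdown raised 4 and lowered 0, with CASP1 (0.98) again first, where 7.85% of all genes rose and 7.43% fell. For 5-OH-TMT against TNF-α limma called 0 of 11 and voom called 0. At an unadjusted p under 0.05 there were 7, against 20.1% of all genes, 6 of them higher and 1, IL18, lower.

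No enzyme that processes the CaaX box was called higher in any comparison, where 0.0332% to 9.35% of all genes were. With 6 genes, a count of 0 is near those shares. Of 6 genes for prenylation and CaaX processing, TNF-α changed 0 against medium by limma, with 0 at an unadjusted p under 0.05, against 14.8% of all genes, and 0 by voom. In the knockdown 0 rose and 2 fell against TNF-α, where 9.35% of all genes rose and 8.08% fell. The 2 were the protease ZMPSTE24 (log2 fold change -0.41, adjusted p = 0.0429) and the methyltransferase ICMT (-0.29, adjusted p = 0.0303). With 5-OH-TMT against TNF-α limma called 0 of 6, with 3 at an unadjusted p under 0.05, against 20.1% of all genes, 2 of them higher and 1 lower. The lower one was again ZMPSTE24 (-0.56, adjusted p = 0.0874), with mean levels of 17.3 FPKM under TNF-α and 11.7 FPKM after adding 5-OH-TMT, and voom called it. Its value there was further from 0 than in the knockdown, and the difference between the knockdown and 5-OH-TMT was 0.16 (adjusted p = 0.443). For the knockdown against 5-OH-TMT limma called 0 of 6 and voom 0, with 2 lower at an unadjusted p under 0.05, FNTB and ICMT, against 29.7% of all genes. Among 9 other GTPases of the dynamin type, 7 were tested. MX1, an interferon-induced antiviral GTPase, rose with TNF-α (0.69, adjusted p = 0.00414), as did IRGQ (0.61, adjusted p = 0.00262), and 0 fell. Of all genes 3.22% rose there and 0.885% fell. In the knockdown MX2 (2.43, adjusted p = 2.73e-05) and MX1 (2.35, adjusted p = 7.69e-07) rose against TNF-α, 0 fell, and the same genes with ATL2 rose against 5-OH-TMT. The shares of all genes that rose were 9.35% and 7.85% in these comparisons, and the shares that fell were 8.08% and 7.43%. With 5-OH-TMT limma called 0 of 7 and voom called 0, with 1 higher at an unadjusted p under 0.05, against 20.1% of all genes.

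**Figure D5:**
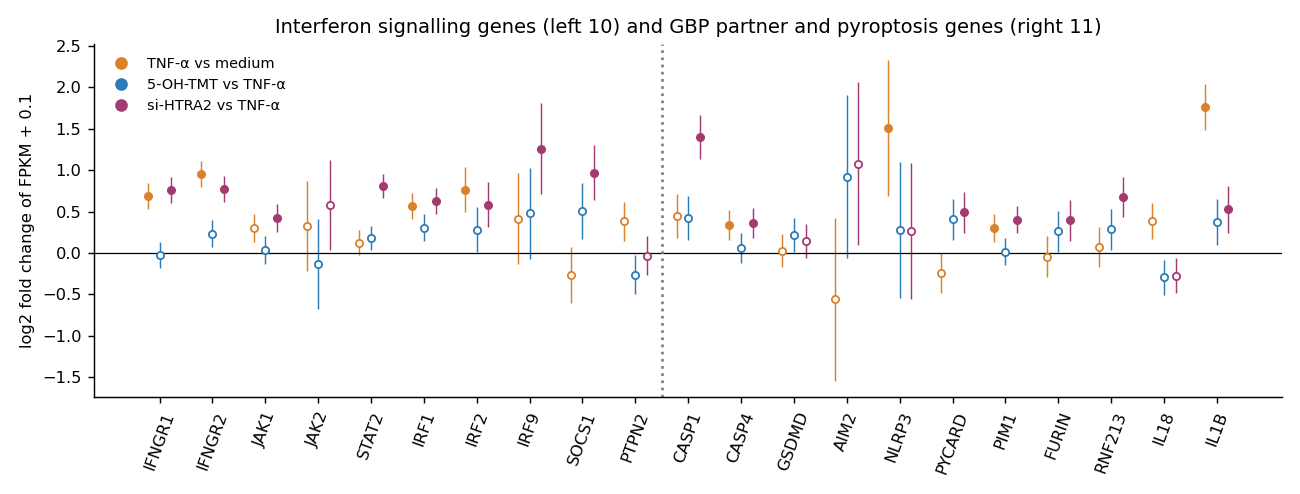
Log2 fold change on the log2(FPKM + 0.1) scale of 10 of the 11 tested genes of interferon-γ signalling (left) and the 11 of pyroptosis and GBP partners (right) for TNF-α against medium and for 5-OH-TMT and the knockdown against TNF-α. Bars are 95% intervals from limma and filled points passed at an adjusted p under 0.05. No 5-OH-TMT point is filled, whereas IRF9 at 1.26 and CASP1 at 1.40 are filled in the knockdown.

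Over the 12 libraries the members followed each other closely, with Pearson's r of log2(FPKM + 0.1) from 0.834 for GBP1 and GBP5 to 0.994 for GBP2 and GBP4. These values describe 4 group means more than 12 separate points, and they share libraries and scaling. Among 11185 genes with a mean of at least 1 FPKM, the gene most like GBP4 was PARP14, an interferon-induced ADP-ribosyltransferase (r = 0.997), followed by MXD1 (0.995) and ITGB6 (0.991). PARP14 had mean levels of 5.35 FPKM in medium, 9.85 under TNF-α, 12 after adding 5-OH-TMT and 28.7 in knockdown cells, and it was also among the 3 genes most like GBP2 (0.991) and GBP3 (0.984). GBP2 was otherwise nearest to DUSP16 (0.992) and MXD1 (0.990), and GBP3 to the integrin ITGB8 (0.991) and APOL6 (0.990). GBP1 was nearest to PLAU, the urokinase gene (0.996), with mean levels of 12.6, 55.6, 66.5 and 199 FPKM in the 4 groups, then to DUSP6 (0.995) and TMEM52B (0.993).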

How the data were processed

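RNA of 12 NCM460 libraries was analysed, 3 in each of 4 groups taken from the labels. The authors selected poly(A) RNA and deposited their FPKM values and gene lengths in 1 table. The submitters' processing notes name CASAVA 1.8, HISAT2 2.0.4, HTSeq 0.9.1 and hg38, without their roles. The strandedness of counting is not given in the sources used here. FPKM multiplied by gene length gave whole reads for all values (tolerance 0.02 reads), and each library's scale matched the median of gene ratios. Limma 3.58.1 in R 4.3.3 was fitted to log2(FPKM + 0.1) of 18079 genes (mean FPKM of 0.1 or more), 1 mean per group, 8 residual degrees of freedom, eBayes with trend and Benjamini-Hochberg adjustment over all genes tested. The fit was also run on simulated data in which only genes with many reads were changed, with a fixed spread. That run does not cover members with few reads, such as GBP5. Replicates differed by more than counting error (chi-squared per degree of freedom 6.87 to 40.8). The members, lists and tests were chosen with earlier results of these data known. Named are all members, GBP6, GBP7, GBP1P1, HTRA2, up to 4 called genes per list and comparison, and the 3 genes most like each member with a mean of at least 1 FPKM. Markers at 0 or under the floor, and the genes of the marker check, with FNTB, PTPN2 and IL18, were named after their values were seen. Motifs and coding ends were read from RefSeq and GENCODE 29 sequences in Python 3.11.15. Single values of 2 genes of these lists are not reported here.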

Additional observations from a re-analysis of the deposited data

How the results depend on the processing

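Each comparison was recomputed under 11 other settings with all libraries and with each of its 6 libraries left out. No log2 fold change of a member changed sign. The number of members called was 3 to 4 for TNF-α against medium and 0 for 5-OH-TMT against TNF-α. For the knockdown against either, GBP1 to GBP4 were called under every setting. GBP5 is left out of these knockdown counts, since it entered the main fit only through the knockdown libraries. A filter of at least 1 FPKM leaves 4 members to test. With libraries left out the counts were 4 for TNF-α against medium and 0 for 5-OH-TMT, and GBP1 to GBP4 stayed called in the knockdown comparisons. Calls were lost for GBP2 with TNF-α when only those groups were fitted (adjusted p = 0.0765), and for GBP5 in the knockdown against TNF-α with a pseudocount of 0.01 (0.0801) and without the second knockdown library (0.0522). With the replicate block 4 members were called for TNF-α against medium, 0 for 5-OH-TMT, and GBP1 to GBP4 in both knockdown comparisons. Same-numbered libraries correlated by -0.052 to 0.038 after group means were removed, so the numbers were not taken to pair libraries. The size of the log2 fold change of GBP5 depended on the pseudocount and on whether FPKM or reads were fitted, from 0.33 to 2.77 in the knockdown against TNF-α, and that of GBP4 with TNF-α ranged from 0.53 to 2.34 and that of GBP2 from 0.48 to 1.15. Rescaling by the median of ratios left the values as they were, since every factor was 1. Rescaling to the sum of reads, chosen after seeing the data, moved the median of all genes by at most 0.029. Depth limits GBP5 and GBP6 outside the knockdown.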
